A study of Mus musculus with 203 samples.

Results

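The genes of the EGR transcription factors and of their NAB corepressors were followed in RAW264.7 cells, a mouse macrophage line from BALB/c animals. Members were taken by gene symbol, and all 5 of them (Egr1, Egr2, Egr3, Nab1 and Nab2) were among the 25094 genes of the RAW table and among the 16478 genes of the table from bone marrow-derived macrophages (BMDMs). The BMDM table, from wild-type and macrophage-specific Gps2 KO mice on C57BL/6, held comparisons and no value per library, so its levels were not analysed here. The RAW RNA-seq covered 4 groups of 4 libraries, 16 in all. The groups were shGFP cells, which carry a control hairpin, and shKDM1A cells, which carry a hairpin against the histone demethylase gene Kdm1a, each without IL4 and with IL4 at 20 ng/ml for 6 h. All 4 groups were made by lentiviral delivery and puromycin selection of stable lines, and a single hairpin stood for the knockdown, so a difference between shKDM1A and shGFP cells is a difference between those lines. The labels did not say whether the libraries of a group came from separate cultures, although the study's methods speak of biological replicates for its experiments in general, and p-values measured the spread between these libraries, which may in part be technical.

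EGR proteins are zinc finger transcription factors whose genes are switched on within minutes by growth factor, cytokine and stress signals, largely through the ERK pathway, SRF and its ETS cofactors. NAB1 and NAB2 have no DNA-binding domain of their own: they dock on EGR1, EGR2 and EGR3 and repress EGR target genes, NAB2 in part through the NuRD complex subunit CHD4. In macrophages EGR1 is known for its part in differentiation and inflammatory signalling, and EGR2 as a factor that IL4 induces in alternatively activated mouse cells.

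The libraries held between 17554721 and 27782568 tags. Values were on a log2 scale, adjusted for library size and drawn in for low expression, so differences on it understate the changes of low genes. Kdm1a had values of 11.13 to 11.23 in shGFP cells without IL4 and 10.23 to 10.36 in shKDM1A cells without IL4. Its fitted difference was -0.88 without IL4 and -0.79 with IL4, which left 0.542 and 0.580 of the control level on this scale. The 9 macrophage markers had group means from 9.55 to 17.2. Of 19 markers of T cells, B cells, neutrophils, dendritic cells and fibroblasts, 8 were at 0 in every library and the highest value was 4.22. The summed level of the macrophage markers was 17.4 in the libraries of shGFP cells with IL4 and between 17.7 and 17.9 in the other groups; its part in the differences below was not tested. In such bulk RNA, fewer cells that express a gene and less of its RNA per cell cannot be told apart.

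Egr2 was the member that IL4 raised most, and it rose in both lines, by 0.91 and by 0.86 on the log2 scale. The gene (NM_010118) lies on mm9 chr10:67000617-67004936, plus strand. RefSeq lists 5 starts for it, and the sequence shown is that of the start which coincides with the start of the deposited gene model, because it is the promoter of the gene with the clearest IL4 response. It runs from 250 bases before to 50 bases after the start, at mm9 chr10:67000367-67000666, and the capitals mark a CArG box, the site that SRF binds.
Egr2 promoter: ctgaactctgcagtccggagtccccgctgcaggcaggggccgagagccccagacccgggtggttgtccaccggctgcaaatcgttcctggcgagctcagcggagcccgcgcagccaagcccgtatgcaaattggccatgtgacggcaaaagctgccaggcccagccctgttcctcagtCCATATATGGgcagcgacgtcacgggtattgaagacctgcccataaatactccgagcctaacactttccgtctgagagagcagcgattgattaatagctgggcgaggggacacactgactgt
The CArG box, CCATATATGG, began at position -72 from the start. Of 32851 promoters of this length in RefSeq (GRCm38.p6), 1.63% held a CArG box on either strand. A STAT6 site (TTC and GAA with 4 bases between them) and an EGR site (GCGNGGGCG) were searched on both strands and had no match in these 300 bases, which says no more than that the letters are not in this window. The STAT6 site was held by 6.95% and the EGR site by 5.55% of all the promoters.

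In shGFP cells without IL4, the Egr2 values were 7.02, 6.97, 6.98 and 6.97. With IL4 they were 8.00, 7.87, 7.94 and 7.76. The groups did not overlap, and the lowest IL4 library lay well above the highest untreated one. The fitted difference was 0.91 ± 0.05 (log2, SE, n = 4 and 4), 1.87-fold on this scale, with a limma adjusted p of 3.9e-10. By size of the IL4 increase in shGFP cells, Egr2 stood at rank 27 of the 12905 genes tested.

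In shKDM1A cells without IL4, Egr2 values were 7.01, 7.17, 7.05 and 7.17. In shKDM1A cells with IL4 they were 7.96, 7.87, 8.04 and 7.97. Again the groups were fully apart. The difference was 0.86 ± 0.05 (1.82-fold, limma adjusted p = 8.8e-10), rank 31 among all genes tested. The IL4 difference in shKDM1A cells minus that in shGFP cells was -0.04, with a 95% interval of -0.19 to 0.10 (limma adjusted p = 0.76), an interval that holds inductions from 0.19 smaller to 0.10 larger in the knockdown cells.

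Without IL4, Egr2 was 0.12 ± 0.05 higher in shKDM1A than in shGFP cells (limma adjusted p = 0.068), and the ranges overlapped at their edges. This comparison sat near the threshold: with the model fitted to those 8 libraries alone the limma adjusted p was 0.030, and over all alternatives it ran from 0.030 to 0.21. With IL4 the knockdown difference was 0.07 ± 0.05 (adjusted p = 0.25 by limma), and the groups overlapped.

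**Figure D1:**
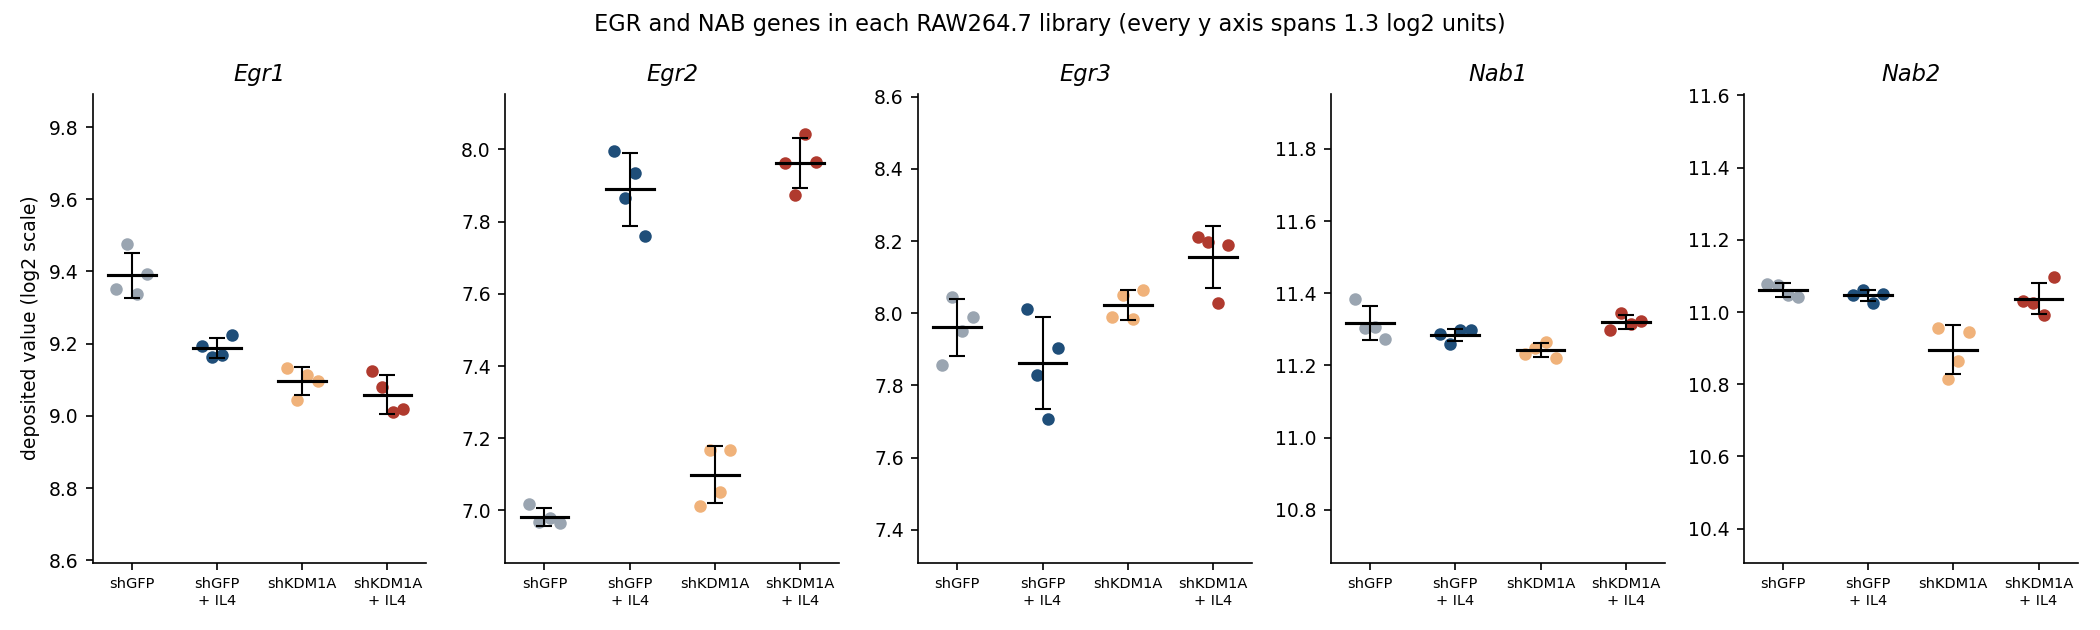
Deposited log2 values of the 5 genes in each of the 16 RAW libraries, with the points as libraries, the bar as the mean and the whiskers as the SD of 4. Each y axis spans the same 1.3 log2 units. Egr2 with IL4 lies between 7.76 and 8.04 and without IL4 between 6.97 and 7.17, while Nab1 spans 11.22 to 11.38 in all.

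Egr1, the best known immediate-early factor of the family, moved in the opposite direction at 6 h of IL4. No earlier IL4 time was among these libraries, so a brief earlier change of an EGR gene would not be seen. The gene (NM_007913) lies on mm9 chr18:35020861-35024610, plus strand. Its values in shGFP cells without IL4 were 9.35, 9.48, 9.34 and 9.39. In shGFP cells with IL4 they were 9.19, 9.16, 9.17 and 9.22. Every untreated library was above every treated one. IL4 lowered Egr1 in shGFP cells by 0.20 (difference -0.20 ± 0.03, limma adjusted p = 0.00017), which leaves 0.869 of the untreated level.

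In shKDM1A cells without IL4, Egr1 values were 9.13, 9.04, 9.11 and 9.10. The IL4 libraries held 9.12, 9.08, 9.01 and 9.02, and these groups overlapped. All 8 shKDM1A libraries lay below the lowest of the 8 shGFP libraries, at 9.16. The knockdown difference was -0.29 ± 0.03 without IL4 (limma adjusted p = 1.9e-06) and -0.13 ± 0.03 with IL4 (limma adjusted p = 0.0044). The IL4 difference within shKDM1A cells was -0.04, with an interval of -0.11 to 0.03 (limma adjusted p = 0.44).

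The IL4 effect on Egr1 thus differed between the lines by 0.16 ± 0.05 (limma adjusted p = 0.045). That call was a narrow one. It was lost in 10 of the 16 fits that left out 1 library, in which the difference ran from 0.13 to 0.18, and over all alternatives the adjusted p ran from 0.033 to 0.12. The untreated shGFP libraries enter both the IL4 comparison and the knockdown comparison, so the Egr1 values of -0.20 and -0.29 are not independent.

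Egr3, which is often induced together with Egr2 and overlaps it in function in lymphocytes, rose with the knockdown under IL4. The gene (NM_001289925) lies on mm9 chr14:70477124-70482420, plus strand. Its shGFP values were 7.86, 8.05, 7.95 and 7.99 without IL4. In the IL4 libraries they were 8.01, 7.83, 7.71 and 7.90, overlapping the untreated range. The difference was -0.10 ± 0.06 (limma adjusted p = 0.24).

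In shKDM1A cells, Egr3 values were 7.99, 8.05, 7.98 and 8.07 without IL4. Under IL4 the values were 8.21, 8.20, 8.03 and 8.19. Replicate 3 stood apart from the other treated libraries and fell inside the untreated range. The IL4 difference in shKDM1A cells was 0.13 ± 0.06 (limma adjusted p = 0.099). Without replicate 3 it was 0.18 with an adjusted p of 0.032 by limma, the range over all alternatives being 0.032 to 0.27.

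Among the libraries with IL4, Egr3 was higher in every shKDM1A library than in any shGFP library. The difference was 0.29 ± 0.06, 1.23-fold (limma adjusted p = 0.00061), and it passed the test in all 16 fits that left out 1 library. Without IL4 the knockdown difference was 0.06 ± 0.06 (limma adjusted p = 0.44), and the groups overlapped. The difference between the lines in the IL4 effect was 0.23, with an interval of 0.06 to 0.40 and a limma adjusted p of 0.097, so the IL4 effects were not shown to differ by the threshold used. Egr4, the remaining gene of the family, was listed at 0 in every RAW library.

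Nab1 and Nab2 changed by small amounts, and those that passed the test were lower in resting knockdown cells and higher after IL4 in knockdown cells. Nab1 (NM_008667) lies on mm9 chr1:52512693-52557292 and Nab2 (NM_008668) on mm9 chr10:127097974-127103759, both on the minus strand. Their promoters are shown because NAB genes are known targets of EGR proteins and, of the members' promoters listed by RefSeq, that of Nab1 held the EGR site. They cover 250 bases before to 50 bases after each start, from RefSeq GRCm38.p6 (Nab1 at mm9 chr1:52557243-52557542, Nab2 at mm9 chr10:127103710-127104009), written along the minus strand with EGR sites in capitals.
Nab1 promoter: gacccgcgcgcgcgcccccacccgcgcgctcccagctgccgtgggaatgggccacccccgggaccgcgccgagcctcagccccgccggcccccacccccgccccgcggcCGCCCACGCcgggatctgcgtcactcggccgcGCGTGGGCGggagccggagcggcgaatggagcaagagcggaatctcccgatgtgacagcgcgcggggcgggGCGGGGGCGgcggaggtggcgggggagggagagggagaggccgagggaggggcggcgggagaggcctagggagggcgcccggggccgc
Nab2 promoter: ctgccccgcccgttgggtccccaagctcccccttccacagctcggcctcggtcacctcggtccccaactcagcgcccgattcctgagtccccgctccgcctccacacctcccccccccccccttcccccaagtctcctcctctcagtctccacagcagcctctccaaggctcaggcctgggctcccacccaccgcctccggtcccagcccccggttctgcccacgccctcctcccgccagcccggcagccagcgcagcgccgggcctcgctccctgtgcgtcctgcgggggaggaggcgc
The Nab1 promoter held 3 matches to GCGNGGGCG, the farthest of them on the opposite strand, at positions -141, -109 and -38 from the start. Each of the 3 overlapped a match to GGGCGG, the GC box that Sp factors bind, which 35.7% of all promoters held. Neither promoter held the STAT6 site or a CArG box. A match here is a description of letters, and no binding at these sites was analysed. The promoter table had no entry for Egr1 or Egr3.

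The Nab2 values in shGFP cells were 11.08, 11.08, 11.05 and 11.04 without IL4. With IL4 they were 11.05, 11.06, 11.02 and 11.05. The groups overlapped, and the difference was -0.01 with an interval of -0.08 to 0.05 (limma adjusted p = 0.78). In shKDM1A cells the values were 10.96, 10.82, 10.87 and 10.95 without IL4. The IL4 libraries held 11.03, 11.03, 10.99 and 11.10. All treated shKDM1A libraries lay above all untreated ones, while every untreated shKDM1A library lay below every shGFP library.

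The IL4 difference of Nab2 in shKDM1A cells was 0.14 ± 0.03 (limma adjusted p = 0.0017). The knockdown difference without IL4 was -0.16 ± 0.03 (limma adjusted p = 0.00029). With IL4 it was -0.01, and its interval of -0.07 to 0.05 spanned 0 (limma adjusted p = 0.84), with a sign that turned when each library was centred on its median. The IL4 effect on Nab2 differed between the lines by 0.16 ± 0.04 (limma adjusted p = 0.037), a call lost in 11 of the 16 fits that left out 1 library, where the difference ran from 0.13 to 0.18. Over all alternatives its adjusted p ran from 0.020 to 0.092. The comparisons share the untreated shKDM1A libraries.

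The last 70 bases of Nab2, at mm9 chr10:127097974-127098043, overlap the end of Stat6, which encodes the transcription factor activated by the IL4 receptor and runs along the opposite strand. Reads were counted without regard to strand, so reads in that overlap cannot be told apart. It covers 70 bases of a model of 2566 bases in the deposited table; in the GENCODE vM1 annotation of the same build, 40 of 2941 exon bases of Nab2 (1.36%) were shared with Stat6. The IL4 difference of Stat6 was 0.08 ± 0.02 in shGFP cells (limma adjusted p = 0.017) and 0.05 ± 0.02 in shKDM1A cells (limma adjusted p = 0.12), and its knockdown differences were 0.02 without IL4 and -0.01 with IL4. The part of these reads in the Nab2 values was not tested.

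Nab1 values in shGFP cells were 11.38, 11.30, 11.31 and 11.27 without IL4. In the IL4 libraries they were 11.29, 11.26, 11.30 and 11.30. The difference was -0.03 ± 0.02 (limma adjusted p = 0.32), and the groups overlapped. In shKDM1A cells they were 11.23, 11.25, 11.27 and 11.22 without IL4. Under IL4 the values were 11.30, 11.35, 11.31 and 11.32, above every untreated shKDM1A library.

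The IL4 difference of Nab1 in shKDM1A cells was 0.08 ± 0.02 (limma adjusted p = 0.016). The knockdown difference without IL4 was -0.08 ± 0.02 (limma adjusted p = 0.014). With IL4 it was 0.04 ± 0.02 (limma adjusted p = 0.23), although the groups did not overlap (their edges were equal at 2 decimals) and the exact two-sided permutation test gave 0.029, the smallest p that 4 libraries against 4 allow. The difference between the lines in the IL4 effect was 0.11 ± 0.03, at a limma adjusted p of 0.0503. In percent, the largest called difference between a pair of groups was 5.51% for Nab1 and a decrease of 10.8% for Nab2.

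**Figure D2:**
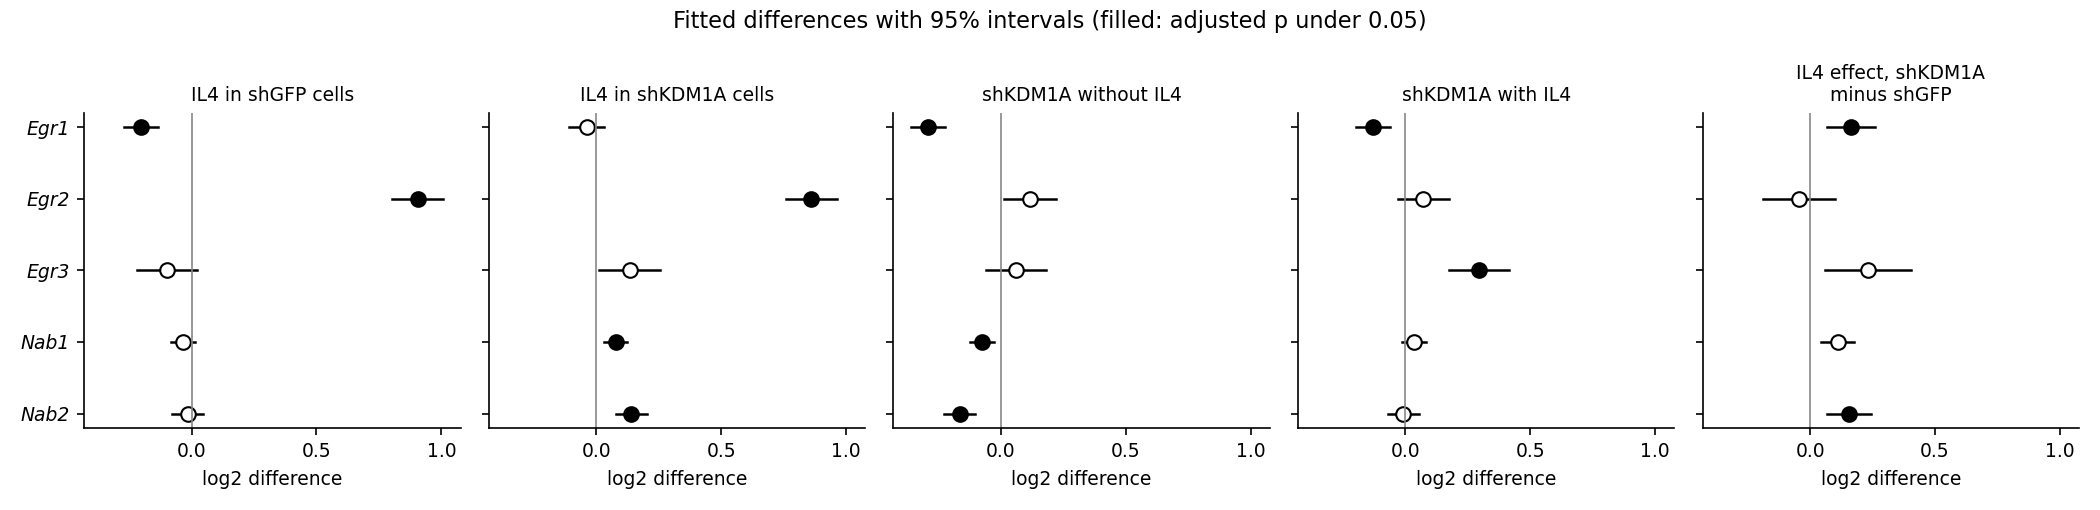
Fitted log2 differences of the 5 genes in the 5 comparisons, with 95% intervals from the limma fit, filled where the adjusted p was under 0.05. Egr2 stands at 0.91 and 0.86 in the IL4 comparisons, and no other difference exceeds 0.29 in size.

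Counted over the members, IL4 changed 2 of 5 in shGFP cells, 1 up and 1 down, where 26.9% of all 12905 genes tested were called, 13.1% higher and 13.7% lower. In shKDM1A cells it raised 3 of 5 and lowered none that passed, against 27.1% of all genes called, 13.6% higher and 13.5% lower. The knockdown lowered 3 of 5 without IL4, against 38.2% called, 19.7% higher and 18.4% lower. With IL4 it raised 1 and lowered 1, against 40.7% called, 20.9% higher and 19.8% lower. The difference between the lines in the IL4 effect was called, on the higher side, for 2 of 5, against 6.13% of all genes, 3.56% higher and 2.57% lower. The median size of the members' differences, without sign, was 0.10 for IL4 in shGFP cells and 0.13 in shKDM1A cells, against 0.05 over all genes tested in each. For the knockdown it was 0.12 without IL4, against 0.06, and 0.072 with IL4, against 0.067, and for the difference between the lines 0.16 against 0.05. With so few members these counts describe the genes named and no more.

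Compared per length (the log2 value minus the log2 of the model's length in kb), the corepressors stood above the factors in all groups. In untreated shGFP cells the levels per length were 9.70 for Nab2, 8.97 for Nab1, 7.77 for Egr1, 5.94 for Egr3 and 5.42 for Egr2. With IL4, Egr2 reached 6.32 and passed Egr3 at 5.84. Each gene was apart from its neighbour in this order in every group of 4 libraries. Without IL4 the order of the lowest pair was Egr3 above Egr2 in both lines, and with IL4 it was Egr2 above Egr3 in both.

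The distance between Egr1 and Egr2 narrowed accordingly. Egr1 was 2.36 log2 units above Egr2 per length in untreated shGFP cells and 1.25 above it with IL4. In shKDM1A cells the distances were 1.95 and 1.05. Nab2 exceeded Egr1 by 1.93 ± 0.06 (SD, n = 4) in untreated shGFP cells and by 2.24 ± 0.07 in shKDM1A cells with IL4, the narrowest and the widest gap of the 4 groups. These are levels of RNA, and nothing was measured on the proteins. By level per length, Nab2 exceeded 83.2% of the genes tested in untreated shGFP cells, Egr1 52.4% and Egr2 24.8%.

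**Figure D3:**
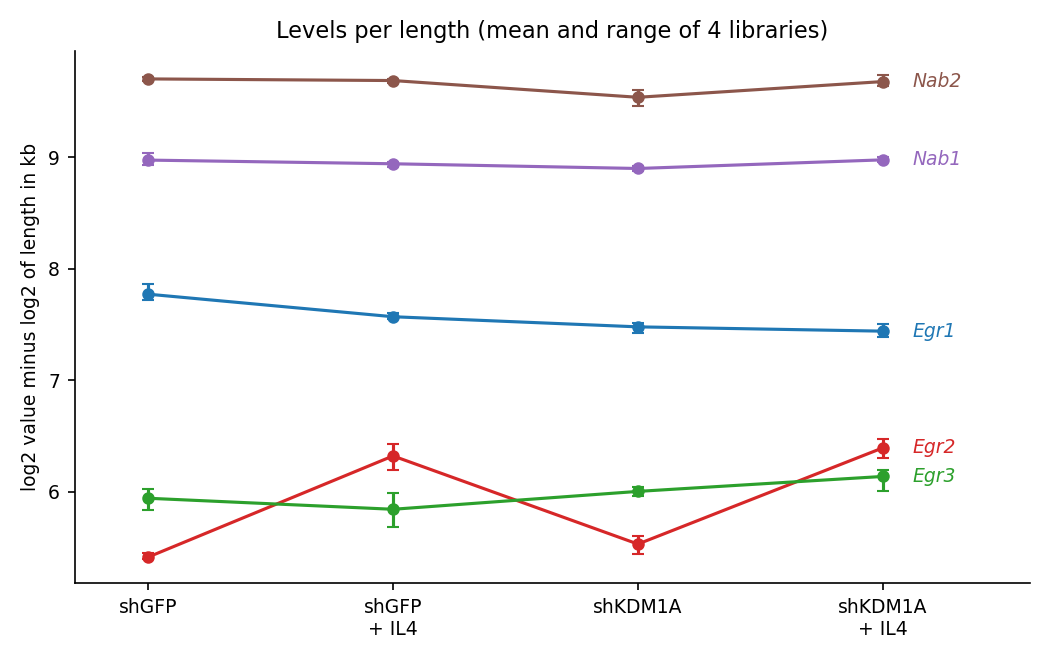
Levels per length (log2 value minus log2 of length in kb) of the 5 genes in the 4 groups, as the mean with the range of 4 libraries. Nab2 is highest, with means from 9.54 in shKDM1A cells without IL4 to 9.70 in shGFP cells without IL4. Egr2 changes places with Egr3 between the groups without and with IL4.

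The members did not share a pattern over the 16 libraries. The closest pair was Nab1 and Nab2 (Pearson r = 0.59), and the most opposed was Egr1 and Egr2 (r = -0.55), where the points share libraries and fall into 4 groups. Among 775 tested genes whose group means differed by at least 0.5, the genes most like Egr2 were Rcan1, an inhibitor of calcineurin (r = 0.99), B4galt1, a galactosyltransferase (r = 0.99), and Cd36, a scavenger receptor (r = 0.99). Cd36 went from a mean of 11.84 to 13.58 with IL4 in shGFP cells and from 12.16 to 13.56 in shKDM1A cells.

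Egr1 was most like Cerkl (r = 0.93), Srgn, which encodes the granule proteoglycan serglycin (r = 0.93), and Gpr84, a receptor for medium-chain fatty acids (r = 0.92). Egr3 was most like Pdcd1, the gene of PD-1 (r = 0.75), Lpar1, a lysophosphatidic acid receptor (r = 0.75), and Anxa2 (r = 0.74). Mean Pdcd1 values were 5.94 and 6.14 in shGFP cells and 6.37 and 7.27 in shKDM1A cells, each without and with IL4. For Nab2 the nearest were Pkp2 (r = 0.79), Igfbp4 (r = 0.76) and Ly86 (r = 0.76). For Nab1 they were Ctsc (r = 0.53), Pkp2 (r = 0.51) and Hdgfl3 (r = 0.47). All these genes were sought among the same 775, so genes whose group means differed by less than 0.5 were not candidates. Nab2 was closer to Nab1 (r = 0.59) than any gene named for Nab1 here.

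**Figure D4:**
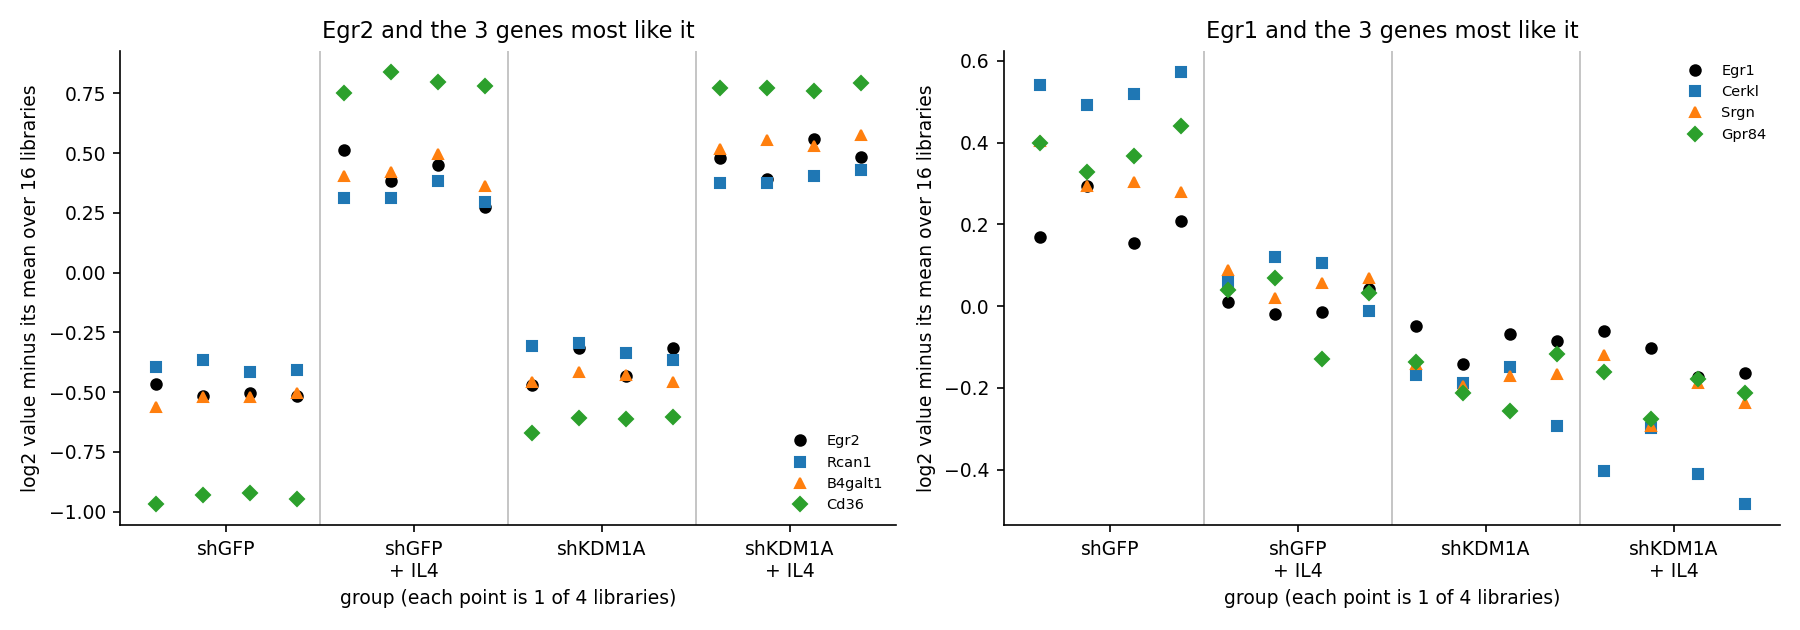
Log2 values minus the mean over the 16 libraries, for Egr2 (left) and Egr1 (right) with the 3 genes most like each, by group of 4 libraries. Cd36 swings more widely than Egr2, and the Egr1 points are highest in untreated shGFP cells.

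Upstream of the EGR genes, 7 genes of SRF and its cofactors were tested, a list that also holds Cited2, a coactivator-binding protein. IL4 raised 2 and lowered 1 in each line, the gene lowered being Cited2 both times, against 26.9% of all genes called in shGFP cells and 27.1% in shKDM1A cells. Elk3, an ETS cofactor of SRF, rose by 0.19 ± 0.03 in shGFP cells and 0.21 ± 0.03 in shKDM1A cells. Without IL4 the knockdown raised 1 and lowered 3, against 38.2%. The one raised was Elk1, another ETS cofactor, at 0.29 ± 0.04 (limma adjusted p = 1.0e-05). The difference of Srf itself was -0.16 ± 0.03 (limma adjusted p = 0.00033) beside -0.29 for Egr1, and with IL4 that of Srf was 0.006 (limma adjusted p = 0.90) beside -0.13 for Egr1. The median knockdown difference of the list was -0.09 without IL4, against -0.0027 over all genes tested, and -0.11 with IL4, against -0.0024.

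The immediate-early genes that are usually induced with EGR genes were changed by IL4 in 14 of 19 tested in shGFP cells, 10 up and 4 down, where 26.9% of all genes were called (13.1% higher, 13.7% lower), with a median difference of 0.10 against -0.00049 over all genes tested. Myc rose by 0.54 ± 0.05, while Ier3 was at -0.39 ± 0.05. The knockdown changed 11 of 19 without IL4, 8 up and 3 down, against 38.2% of all genes. Fosl1 was 0.98 ± 0.03 higher, against the Egr1 difference of -0.29 and the Egr2 difference of 0.12 in the same libraries. Of 9 ERK feedback genes tested, IL4 raised 3 and lowered 2 in shGFP cells, against 26.9%: the ERK phosphatase gene Dusp6 was at -0.42 ± 0.04 and Dusp4 at 0.47 ± 0.03, and the median of the list was 0.02. The knockdown without IL4 raised 3 and lowered 1 of them, against 38.2%.

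Downstream, 17 of 22 genes known as EGR targets were tested, and IL4 changed 13 of them in shGFP cells, 9 up and 4 down, against 26.9% of all genes called, with a median of 0.10. Id2 and Id3, inhibitors of basic helix-loop-helix factors, rose by 1.72 ± 0.06 and 1.91 ± 0.05, beside 0.91 for Egr2. Tnf, the inflammatory cytokine, was at -0.63 ± 0.04. In shKDM1A cells IL4 changed 10, 7 up and 3 down, against 27.1%. The knockdown without IL4 raised 7 and lowered 5, against 38.2%, with Tnf at -0.25 ± 0.04. Id3 had the largest of these differences, with a mean of 7.42 in resting shKDM1A cells against 8.42 in resting shGFP cells (limma adjusted p = 7.4e-11), and with IL4 it was still lower, at -0.31 ± 0.05. From that lower start, the IL4 effect on Id3 was 0.69 ± 0.07 larger in shKDM1A cells (limma adjusted p = 2.2e-05).

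All 14 genes of the NuRD complex, which NAB2 contacts through CHD4, were tested. IL4 raised 4 and lowered none in each line, with a median difference of 0.04 in shGFP cells, a count near the background of 26.9% in shGFP and 27.1% in shKDM1A cells. The knockdown without IL4 raised 1 and lowered 6, against 38.2%, with a median of -0.04, and Chd4 was at -0.22 ± 0.05 (limma adjusted p = 0.0013), beside -0.16 for Nab2. With IL4 it raised 2 and lowered 5, against 40.7%, with Chd4 at -0.26 ± 0.05 while Nab2 was at -0.01. Of 10 genes tested of the IL4 receptor route, IL4 raised 4 and lowered 2 in shGFP cells, against 26.9%, with a median of 0.05. Cish and Socs1, inhibitors of cytokine receptor signalling, rose by 0.38 ± 0.02 and 0.70 ± 0.05 there and by 0.19 ± 0.02 and 0.37 ± 0.05 in shKDM1A cells. Cish was a low gene, with group means from 3.96 to 4.34, so its differences are drawn in on this scale. The difference between the lines in the IL4 effect was called for 3 of the 10, against 6.13% of all genes, with Il13ra1, a receptor chain, at 0.26 ± 0.05 (limma adjusted p = 0.010). IL4 differences of Il13ra1 were -0.20 in shGFP cells (limma adjusted p = 0.00082) and 0.06 in shKDM1A cells (limma adjusted p = 0.30). Its knockdown difference without IL4 was -0.58 (limma adjusted p = 3.7e-09). The IL4 effects on Cish and Socs1 differed between the lines by -0.19 ± 0.03 and -0.33 ± 0.07 (limma adjusted p = 0.00078 and 0.015), where that of Egr2 was -0.04 ± 0.07.

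**Figure D5:**
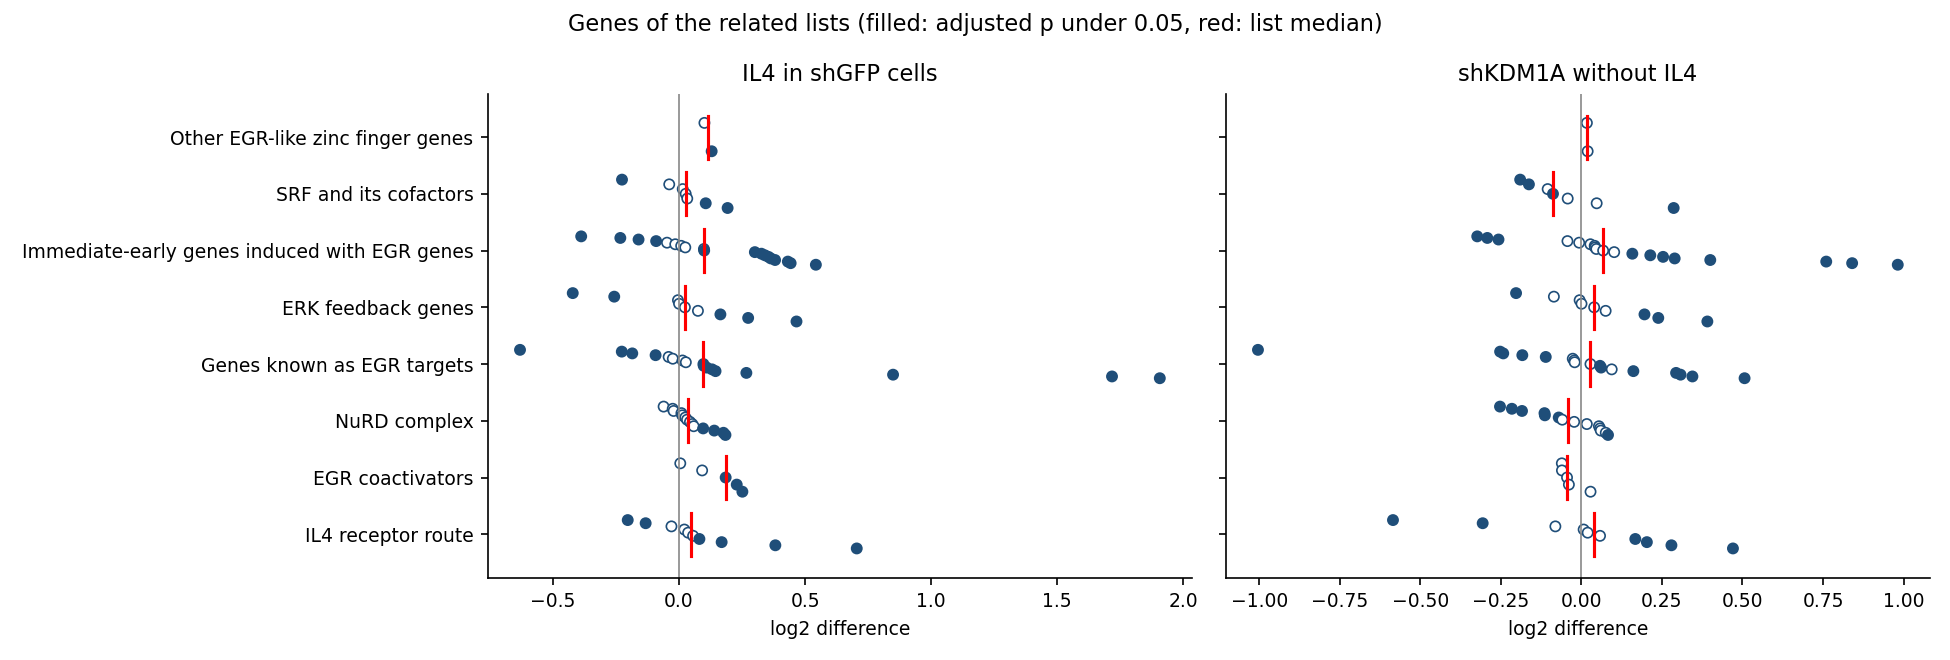
Fitted log2 differences of the tested genes in 8 related lists, for IL4 in shGFP cells (left) and for the knockdown without IL4 (right). Each point is a gene, filled where the adjusted p was under 0.05, and the red line is the median of the list. Id2 and Id3 stand farthest right among the EGR targets on the left, at 1.72 and 1.91.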

How the data were processed

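RAW264.7 RNA-seq libraries were aligned by the authors to mm9 (HISAT2 and Bowtie2 are named in the methods and the submitters' processing notes) and counted with HOMER on exons of RefSeq genes without regard to strand. The deposited RAW values were on a log2 scale, adjusted for library size and moderated for low expression. The transformation was not given in the sources used here, although the submitters' processing notes also name DESeq2. No counts per gene were used. The BMDM table and further RAW columns hold the authors' own comparisons (fold changes and p-values, raw and adjusted), and none was used. Groups followed the labels.

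A limma 3.58.1 model (R 4.3.3) of the 4 RAW groups was fitted to the 12905 of 25094 genes that reached a log2 value of 1 in 4 or more libraries, with 95% intervals and Benjamini-Hochberg adjustment in each comparison over all genes tested, and a threshold of 0.05. On simulated data, all 100 genes changed by 0.5 and all 100 changed by 1 were recovered for IL4 in shGFP cells, with 9 false calls among 12905 genes. The noise was normal, with the residual spread of each gene in the fit. Both shifts exceeded every member difference other than the IL4 differences of Egr2, so recovery of smaller changes was not tested. Exact two-sided permutation tests used scipy 1.17.1. Libraries held 17554721 to 27782568 tags, and errors came from the spread between libraries.

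The members and lists were chosen with earlier results of these data known. Named genes were the 5 members, the 3 genes most like each member by Pearson r, and per list at most the 2 largest and 2 smallest called differences. Kdm1a and Stat6 were named apart from this rule. Srf and Il13ra1 were also given in a comparison where they were not called. Same-numbered libraries of different groups had correlations of deviations from -0.34 to 0.27, over 0.1 in 3 of 24 pairs, and were not treated as paired. Alternatives were other filters, scalings, prior variances, sets of groups, a replicate block and leaving out each library.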

Additional observations from a re-analysis of the deposited data

Results flagged for a closer look

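Egr3 in shKDM1A cells with IL4 had a library apart from the rest: replicate 3 was at 8.03 and the others between 8.19 and 8.21, so its gap was 0.88 of the group's range, over Dixon's critical value for 4 samples. Chance gives such a gap in about 1 of 20 groups, and 20 groups of the members were examined.

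The IL4 effect differed between shKDM1A and shGFP cells for Egr1, by 0.16 on the log2 scale, and for Nab2, by 0.16, each by the interaction term of the limma fit. Both calls were narrow: leaving out 1 library ended that of Egr1 in 10 of 16 fits and that of Nab2 in 11 of 16, and a replicate block also ended that of Egr1 (limma adjusted p = 0.064). Egr1 was lower with IL4 in all 4 shGFP libraries than in any untreated one, and Nab2 was higher with IL4 in all 4 shKDM1A libraries than in any untreated one.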

How the results depend on the processing

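The IL4 induction of Egr2 in both lines, the IL4 decrease of Egr1 in shGFP cells, the knockdown decreases of Egr1, Nab1 and Nab2 without IL4, the knockdown differences of Egr1 and Egr3 with IL4, and the IL4 increases of Nab1 and Nab2 in shKDM1A cells kept their direction and their side of the threshold in all 23 alternatives fitted by limma. Of 704 checks, 666 stayed as reported. Without a filter on low values, the genes called for the difference between the lines numbered 431 in place of 791, and the differences of 0.16 for Egr1 and 0.16 for Nab2 missed the threshold (limma adjusted p = 0.12 and 0.092, with more genes tested). With a trended prior variance that of Egr1, 0.16, had an adjusted p of 0.058. With the model fitted to the groups compared, Egr3 with IL4 in shKDM1A cells (0.13) and Egr2 with the knockdown without IL4 (0.12) passed. Median centring brought the Nab1 difference between the lines, 0.12, past the threshold, and turned the knockdown difference of Nab2 with IL4 to 0.00077. The exact permutation test gave 0.029 for Nab1 with the knockdown under IL4 (0.035). The share of all knockdown calls that were higher turned with the scaling: without IL4 it was 51.7% as reported and 43.2% after quantile normalization, and with IL4 it was 51.3%, 56.7% after median centring and 45.0% after quantile normalization. For IL4 in shKDM1A cells it was 50.1% as reported and 56.5% after median centring, and for the difference between the lines 58.0% and 66.2%. The cause of these changes was not tested beyond what each setting changes.

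A replicate block left the Egr1 difference between the lines at 0.16 with an adjusted p of 0.064 and changed no other call; 6 of 16 libraries correlated best with a library of their own number.

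Leaving out each library in turn gave 0.12 to 0.18 for Egr3 with IL4 in shKDM1A cells, 0.094 to 0.15 for Egr2 and the knockdown without IL4, and -0.029 to 0.0054 for Nab2 and the knockdown with IL4. Of differences that missed the threshold in every such fit, that of Egr3 with IL4 in shGFP cells ran from -0.15 to -0.047 (limma adjusted p from 0.059 to 0.61), that of Egr2 with the knockdown under IL4 from 0.029 to 0.11, and that of Egr3 with the knockdown without IL4 from 0.027 to 0.090. With IL4, that of Nab1 in shGFP cells ran from -0.048 to -0.010, that of Nab2 in shGFP cells from -0.021 to -0.0074 and that of Egr1 in shKDM1A cells from -0.060 to -0.022. The differences between the lines ran from 0.18 to 0.28 for Egr3, 0.13 to 0.18 for Egr1, -0.088 to -0.0089 for Egr2, 0.088 to 0.13 for Nab1 and 0.13 to 0.18 for Nab2. For Egr3 that difference passed without shGFP IL4 replicate 1, and for Nab1 without shGFP control replicate 4.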

Other observations

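Of 5 genes of EGR coactivators, all tested, IL4 raised 3 in shGFP cells, where 26.9% of all genes tested were called, among them Ep300, a histone acetyltransferase, by 0.25 ± 0.08 (limma adjusted p = 0.022), and 1 in shKDM1A cells, against 27.1%, the gene Ing4 at 0.22 ± 0.05. With IL4 the knockdown lowered 1 of the 5, against 40.7%, the gene Hcfc1, which was at -0.27 ± 0.08 (limma adjusted p = 0.013). Of the other EGR-like genes, Sp1 and Sp3 were tested, and Egr4 and Wt1 did not reach the filter. With IL4, the knockdown differences were -0.20 ± 0.06 for Sp1 and -0.11 ± 0.04 for Sp3 (limma adjusted p = 0.015 and 0.034).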
